A study of Mus musculus with 3 samples.

Results

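In epididymal fat of mice fed a high-fat diet, 3236 regions carried a methylated DNA peak that had no counterpart nearby in fat of mice on a normal diet or on a high-fat diet with folic acid. They were selected on the deposited peak lists themselves. Each lay on an autosome, had a score of 100 or more in the high-fat list, and had no peak of either other list within 5000 bp of its edges. These isolated high-fat-only peaks were 3236 of the 65215 autosomal high-fat peaks at that score (4.96%, Wilson 95% interval 4.8 to 5.13), out of 332157 peaks in the 3 lists. Score and isolation chose them, so neither is a finding below, and the 4.96% describes the rule.

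The assay was methylated DNA immunoprecipitation followed by sequencing (MeDIP-seq). Male C57BL/6J mice (the strain field says C57BL/6) were 6 weeks old at the start and 16 weeks at harvest. For 10 weeks they received a normal diet (ND) with about 10% of its energy from fat, a high-fat diet (HFD) with about 60%, or the HFD with folic acid at 20 μg/mL in the drinking water (FAD). Each diet had 1 library, so HFD and its library cannot be told apart, there is no replicate check, and no test between diets was possible. The labels do not say whether 1 animal or several went into a library. The tissue is bulk fat, in which a change in methylation within cells and a change in the mix of cells cannot be told apart, and peak lists hold no marker levels against which the tissue could be checked.

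Mammalian DNA methylation sits mostly on cytosines that are followed by guanine (CG dinucleotides), and its heaviest deposits lie in gene bodies, repeats and between genes. Promoters dense in CG are usually free of it in somatic cells, apart from some germline and imprinted genes, where methylation goes with silencing. In MeDIP an antibody to methylated cytosine pulls down fragments, so the signal grows with methylation and with the number of CG sites in the fragment, and a peak is a stretch where fragments pile up past the caller's threshold. A region without a peak can therefore be unmethylated, poor in CG or covered too thinly to be called.

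The few members that reached an annotated promoter show what kind of sequence they covered. The windows run from 250 bases before to 50 after a RefSeq start site, in build GRCm38.p6, the assembly of mm10, and 5 of the 7 under the highest-scoring members with named genes are printed 5′ to 3′ on the strand of the gene, with each CG in capitals. CG reads the same on both strands, and 94.8% of all autosomal windows hold at least 1. Sox30, which encodes a transcription factor of male germ cells, and Rad51c, which encodes a recombination protein, show the CG-dense form. The other 3 windows hold 5 to 8 CG, near the median of 7 over all autosomal windows.
Sox30, chr11:45980060-45980359, plus strand: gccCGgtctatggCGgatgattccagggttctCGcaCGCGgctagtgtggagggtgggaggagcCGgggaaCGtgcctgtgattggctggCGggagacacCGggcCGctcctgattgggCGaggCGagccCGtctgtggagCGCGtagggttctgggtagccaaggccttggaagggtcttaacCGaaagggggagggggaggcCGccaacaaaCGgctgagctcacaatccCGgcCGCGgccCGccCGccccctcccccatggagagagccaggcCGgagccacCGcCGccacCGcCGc
Rad51c, chr11:87404905-87405204, minus strand: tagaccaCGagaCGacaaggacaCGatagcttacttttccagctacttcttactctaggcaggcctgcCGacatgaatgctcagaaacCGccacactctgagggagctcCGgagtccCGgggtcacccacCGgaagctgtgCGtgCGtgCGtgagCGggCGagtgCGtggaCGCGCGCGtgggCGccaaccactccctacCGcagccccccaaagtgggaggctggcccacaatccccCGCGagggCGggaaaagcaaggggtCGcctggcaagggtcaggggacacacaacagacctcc
Ifitm5, chr7:140950194-140950493, minus strand: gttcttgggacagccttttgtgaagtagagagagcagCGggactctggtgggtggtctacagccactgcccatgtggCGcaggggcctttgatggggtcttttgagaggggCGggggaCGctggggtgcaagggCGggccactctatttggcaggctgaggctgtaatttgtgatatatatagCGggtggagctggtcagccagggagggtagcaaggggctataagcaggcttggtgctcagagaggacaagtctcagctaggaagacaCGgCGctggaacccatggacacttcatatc
Tsks, chr7:44942990-44943289, plus strand: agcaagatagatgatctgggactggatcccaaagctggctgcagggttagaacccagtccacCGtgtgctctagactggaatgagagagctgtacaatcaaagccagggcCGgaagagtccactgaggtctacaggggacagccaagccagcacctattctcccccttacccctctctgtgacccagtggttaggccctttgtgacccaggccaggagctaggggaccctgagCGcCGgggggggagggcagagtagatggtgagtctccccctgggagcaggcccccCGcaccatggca
Mtmr2, chr9:13766542-13766841, plus strand: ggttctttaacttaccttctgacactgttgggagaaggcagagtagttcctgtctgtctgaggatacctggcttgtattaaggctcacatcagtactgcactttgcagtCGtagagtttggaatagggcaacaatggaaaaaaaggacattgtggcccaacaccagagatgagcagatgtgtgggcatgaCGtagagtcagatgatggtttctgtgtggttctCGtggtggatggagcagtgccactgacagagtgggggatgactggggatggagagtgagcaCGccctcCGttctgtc
The Sox30 window holds 28 CG, as many as only 14.6% of all autosomal windows reach or exceed, and the member covers 246 of its 300 bases and 22 of the CG. The Rad51c window holds 24 CG, all of them under the member, and 20.5% of windows hold as many. Ifitm5 has 8 CG, all covered, and Tsks and Mtmr2 have 5 each, of which the members cover 3 and 5, so 49% of windows hold as many CG as Ifitm5 and 62.4% as many as Tsks or Mtmr2.

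The same rule turned to the other lists found far fewer peaks. ND had 376 isolated peaks of its own among 48201 autosomal peaks at that score (0.78%, 0.705 to 0.863), and FAD had 269 among 42576 (0.632%, 0.561 to 0.712). The HFD share was 6.36 times that of ND and 7.85 times that of FAD. It was the larger at every distance tried. With overlap alone excluded the shares were 7.75% in HFD, 1.56% in ND and 1.21% in FAD, and at more than 20000 bp they were 1.25%, 0.191% and 0.124%. At more than 50000 bp, 111 HFD peaks remained, beside 9 ND and 8 FAD peaks. The HFD list is also the longest, at 135124 peaks against 101532 and 95501, and read depth is unknown from these lists, so a longer list, a deeper library and the diet cannot be told apart. With each list cut to its 95501 top-scoring peaks the counts were 3449 for HFD, 838 for ND and 564 for FAD, which lowered the ratio of counts between HFD and ND from 8.61 to 4.12. The lowest scores left were 73.24 in HFD and 54.82 in ND, so the cut removed no peak at the score minimum. The 65215, 48201 and 42576 autosomal peaks at that score thus stayed unequal in number. A ratio of counts carries that difference, unlike the ratios of shares above.

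**Figure D1:**
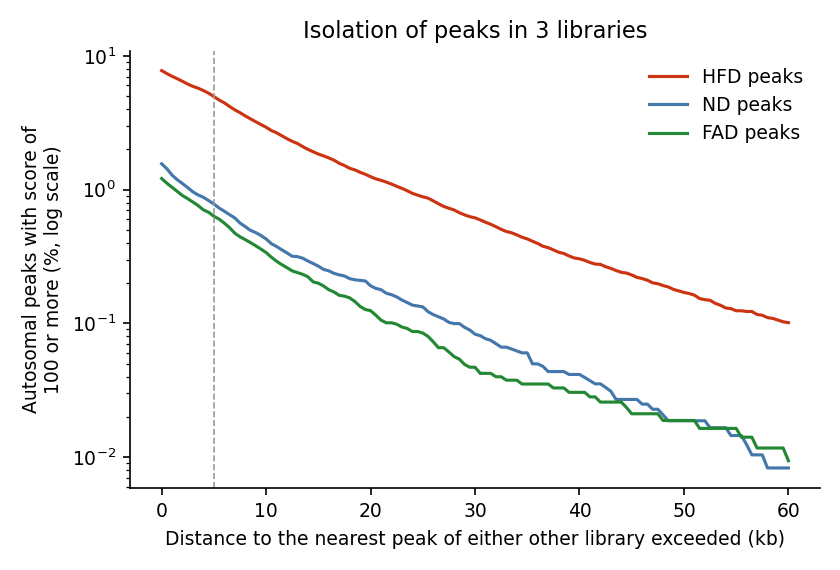
The share of autosomal peaks with a score of 100 or more (%, log scale) that lay farther than a given distance (kb) from every peak of the other 2 libraries, for the HFD, ND and FAD lists. The dashed line marks the 5000 bp of the rule, where the shares are 4.96%, 0.78% and 0.632%, and the HFD curve lies above the others over the whole range drawn.

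The distance beyond the limit that the rule set varied among members. The nearest ND or FAD peak was a median of 11647 bp away (quartiles 7590 and 20099, largest 152856), 1907 members had none within 10000 bp, and it was an ND peak for 2075 members (64.1%) and an FAD peak for 1147 (35.4%). Dropping the demand on one of the lists enlarged the set. Of the 65215 HFD peaks, 6621 had no ND peak within 5000 bp, 3385 of these with an FAD peak there, and 7787 had no FAD peak within that distance, 4551 of these with an ND peak there. At the edges of the rule, the 3 lowest-scoring members had scores of 100.01, 100.05 and 100.05, and the 3 isolated peaks just under 100 all had 99.98. The members nearest to another list's peak lay 5001, 5003 and 5005 bp from it, and the peaks just left out lay 4998, 4992 and 4992 bp away. There were 18050 further isolated HFD peaks with lower scores, 527 of them between 95 and 100, against 703 members between 100 and 105.

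Members were weak and narrow for the HFD list. Their median score was 118 (quartiles 106 and 134) beside 173 for the other 61979 HFD peaks, where score is a part of the rule. In 4 score classes, members made up 13% of HFD peaks in the first 25 points from 100, 7.13% in the next, up to 150, 2.61% at 150 to 200 and 0.198% from 200 upward. Their median width was 434 bp against 663 bp, and the gap held within each score class. The medians were 436.5 and 598 bp in the lowest class, 431 and 615 bp in the next, 424 and 644 bp at 150 to 200, and 350 and 776 bp from 200 upward. Of the members, 36.9% were no wider than 367 bp, the limit of the narrowest 10% of the HFD list, against 8.8% of the others. Isolated ND and FAD peaks leaned further to this side, with 47.1% and 50.6% within their own lists' narrowest 10%.

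**Figure D2:**
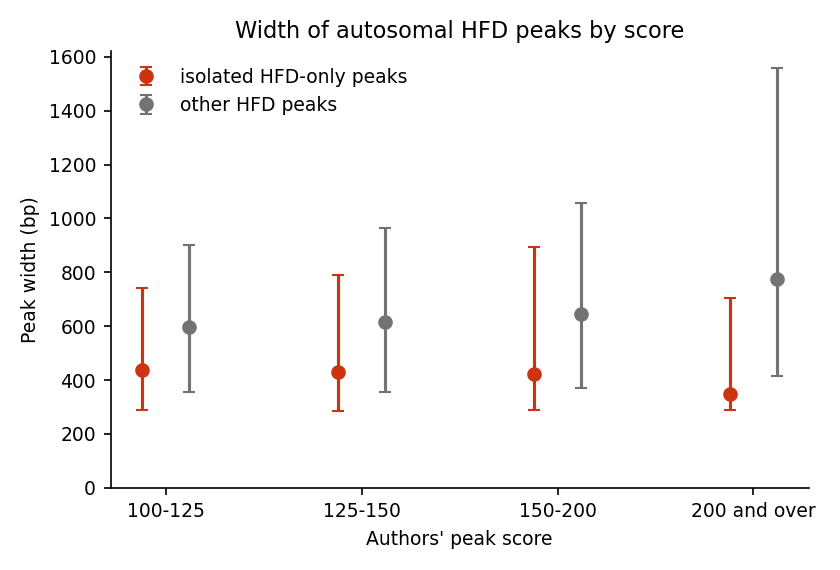
Width (bp) of autosomal HFD peaks by class of the authors' score. Points are medians and bars run from the 10th to the 90th percentile of peaks, for isolated HFD-only peaks and for all other HFD peaks; the isolated peaks have the lower median in all 4 classes, 436.5 against 598 bp in the lowest and 350 against 776 bp in the highest.

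Many members shared exactly the same score. The value 100.59 recurred in 289 members (8.93%, median width 308 bp), 109.06 in 222, 117.73 in 181 and 126.59 in 111, while 100.59 was the score of 0.657% of the other HFD peaks. The 10 commonest values held 1056 members (32.6%), with a median width of 309 bp against 545 bp for the rest of the members, and these values held 4.02% of other HFD peaks. In ND and FAD the 10 commonest values of isolated peaks held 50% and 54.6% of them. The commonest were other values than in HFD. They were 104.11, 114.19, 124.52 and 135.08 in ND, and 108.63, 119.5, 130.63 and 153.62 in FAD. Whether the lists share a score scale was not tested. The equal score minimum and the comparisons of scores across lists assume that they do. Why peaks share a score is not stated in the labels. Without the members at the 10 commonest values of each list, 2180 were left in HFD, beside 188 in ND and 122 in FAD. The ratio of HFD to ND counts was then 11.6 and the median width of members 545 bp. These values had held a larger part of the ND and FAD sets, so the higher ratio follows from which peaks were dropped.

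The highest-scoring member lay in a gene of neuronal adhesion. It was at chr15:30956622-30956929 in Ctnnd2, which encodes the cadherin-binding delta-catenin, with a score of 311.86 and a width of 308 bp. The nearest ND and FAD peaks both lay 9647 bp away and scored 150.48 and 73.25. At chr16:4890675-4890960, in the ubiquitin ligase gene Mgrn1, the score was 278.13, with an ND peak of score 91.19 at 5438 bp and an FAD peak of score 82.32 at 14762 bp. These neighbours are other sites, and the members stand here because their own score was high. Setting scores of different lists side by side assumes a common scale, which was not tested, and the commonest repeated scores differed between lists. Myh11, which encodes a smooth muscle myosin heavy chain, held a member of score 271.09 at chr16:14277450-14277889, with ND and FAD peaks of scores 79.99 and 98.74 at 11089 and 10169 bp. In Ptprd, a receptor tyrosine phosphatase gene, the member at chr4:77037897-77038588 scored 254.26, and the nearest ND and FAD peaks, 25721 and 25982 bp away, scored 212 and 249.26. In Opcml, an adhesion molecule gene, the member at chr9:28507252-28507748 scored 246.68, with ND and FAD peaks of 57.45 and 68.11 at 22313 and 33227 bp. Of these 5 regions, Ptprd had neighbours in the other lists that scored almost as high as the member, and the other 4 had weaker ones. Of the other 5 members among the 10 highest, 1 lay at a gene end and 4 between genes. They were Actr10, described with the gene ends, and chr11:4614379-4614701 (278.13), chr15:70155346-70155721 (274.02), chr17:80498912-80499224 (257.04) and chr11:88812662-88812965 (245.4). The member on chromosome 17 lay 18458 bp from Sos1, which encodes an activator of Ras, and the last lay 17826 bp from Akap1, which encodes an anchor of protein kinase A at mitochondria.

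Members overlapped promoter and gene-end windows less often than the wider other HFD peaks did, and their midpoints lay within 1000 bp of a start site in 1.9% (1.47 to 2.44) against 2.41% (2.29 to 2.54), intervals that overlap. Of the 3109 members on the 18 autosomes of the promoter table, 23 overlapped a promoter window (0.74%, 0.493 to 1.11), against 1.39% (1.3 to 1.49) of other HFD peaks. They reached 25 of 31396 windows (0.0796%), in 24 genes, of which 15 carry provisional symbols. Any gene-end window, from 2000 bp outside to 500 bp inside either end of a gene record, was overlapped by 11.5% of members (10.4 to 12.6) against 13.4% (13.1 to 13.6), and a protein-coding one by 151 members (4.67%, 3.99 to 5.45) against 5.39% (5.21 to 5.57). The intervals of members and other peaks overlap for protein-coding ends and do not for promoter windows or for gene ends of any kind, and overlap with a window depends on width (medians 434 and 663 bp). They cover counting error over peaks only. The median distance to a start site was 31871 bp for members and 30106 bp for other HFD peaks.

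**Figure D3:**
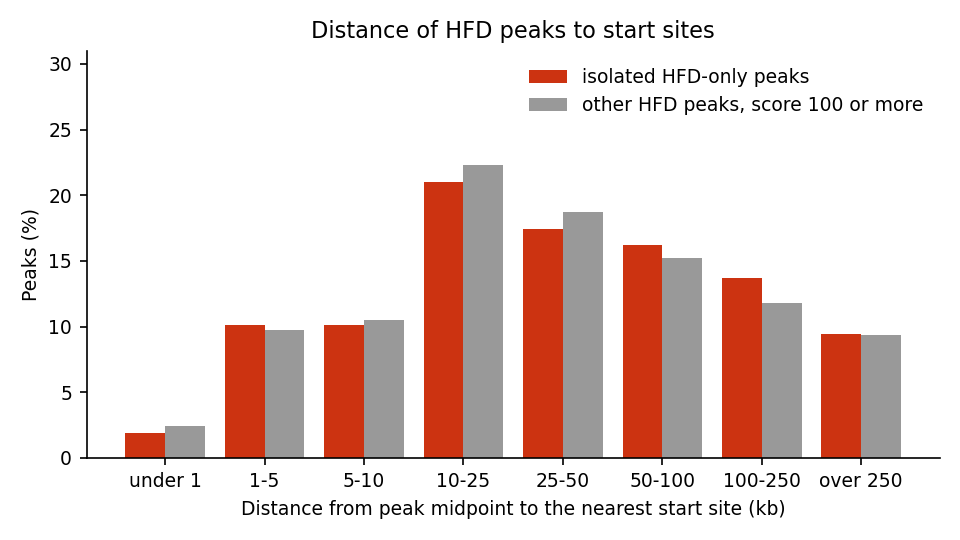
Distance from the midpoint of a peak to the nearest RefSeq start site (kb, in classes), as a percentage of isolated HFD-only peaks and of the other HFD peaks with a score of 100 or more. Both sets have their highest bar at 10 to 25 kb (21% and 22.3%), and 1.9% of members against 2.41% of other peaks lie under 1 kb.

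The promoters that members reached were seldom dense in CG. Their windows held a median of 7 CG (range 1 to 28), beside 8 in the 909 windows reached by other HFD peaks at that score and 7 over all autosomal windows. Windows with 20 or more CG made up 12% of the first (3 of 25), 5.94% of the second and 27% of all. Those 3 were the windows of Sox30 and Rad51c and that of Tex14, a gene for intercellular bridges of germ cells that lies head to head with Rad51c and shares its member. That member, at chr11:87404814-87405749, was 936 bp wide with a score of 131.02, and the nearest ND and FAD peaks lay 7659 and 7650 bp away. The Sox30 member scored 132.17 at chr11:45979723-45980305, inside the gene record, and was more isolated, with ND and FAD peaks 33622 and 33647 bp away. Sox30 and Tex14 are known from germ cells, and Rad51c serves DNA repair and meiosis. They were noticed after their values were seen, Rad51c and Tex14 share 1 peak, and of the 51 listed germline genes measured 5 (9.8%, 4.26 to 21) held a member anywhere, against the 7.15% of all autosomal protein-coding genes given with the gene bodies.

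The promoters with fewer CG belonged to genes of varied roles, germ cell development among them. Ifitm5, which encodes a membrane protein of bone-forming cells, had its whole window under a member of score 156.94 at chr7:140949856-140950542, with ND and FAD peaks 19419 and 29045 bp away, and its 1286 bp record held no other peak of any list. Tsks, a gene of spermatid differentiation, had a member of score 164.37 at chr7:44943191-44943985 over 99 bases of the window, 9450 and 9496 bp from ND and FAD peaks. Mtmr2, which encodes a phosphoinositide phosphatase, had one of score 151.98 at chr9:13766605-13767014, 8095 and 8107 bp from them. The Tsks and Mtmr2 windows stand at start sites inside the gene records. In Fam47e the member (score 110.4) touched 51 bases of a window with 3 CG and covered none of them.

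At gene ends, where the table gives no strand and a window may be the start or the end of a gene, the 10 highest-scoring members lay between 259.42 and 171.69. Actr10, a dynactin subunit gene, came first, with a member at chr12:70966340-70967083 that was 744 bp wide, an ND peak of score 85.63 at 10113 bp and an FAD peak of score 282.93 at 29947 bp. Nlrp3, the inflammasome sensor gene, had a member of score 198.61 at chr11:59539545-59539925, 1643 bp outside its record, with ND and FAD peaks of 76.69 and 55.31 at 8545 and 8488 bp. Retn, which encodes the fat-derived hormone resistin, had one of score 181.51 at chr8:3654696-3655067, 702 bp outside its record, with an ND peak of 246.54 at 14924 bp and an FAD peak of 68.11 at 6155 bp. Of these 3, Nlrp3 had weaker neighbours in both lists, while Actr10 and Retn each had a stronger peak of 1 other diet farther off. Lactb, a mitochondrial protein gene, had a member of score 203.5 whose neighbours at 5689 and 5935 bp scored 365.71 in ND and 323.65 in FAD, so this region was flanked by strong peaks of both. The member of Zbed4, a zinc finger gene (173.49), was likewise flanked by ND and FAD peaks of 372.86 and 252.03 at 5954 and 5790 bp. The others were at Pigh, a GPI anchor synthesis gene, and its neighbour Plekhh1 (193.35), Potegl (192.09), the spliceosome gene Snrpf (180.13), the interferon-induced Ifit1 together with Ifit1bl1 (173.49) and the cilia gene Cfap77 (171.69).

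Gene bodies held members about as often as they held other HFD peaks. The midpoint lay in a protein-coding record for 1619 members (50%, 48.3 to 51.8) against 48.6% (48.2 to 49) of other HFD peaks, in a record of any kind for 58.6% (56.9 to 60.2) against 57.3% (57 to 57.7), and in a long noncoding RNA record for 9.98% of members. No member had its midpoint in a microRNA record. The matching shares of other HFD peaks were not computed for either of these kinds, so neither value sets members apart. HFD peaks that no other list overlapped but that had a neighbour within 5000 bp, 1818 in all, lay in protein-coding records more often, at 55% (52.7 to 57.3). Members that overlapped no protein-coding record lay a median of 60038 bp from one, against 51037 bp for all other HFD peaks and 33569 bp for those 1818. A member lay in or within 2000 bp of 1477 of the 20665 autosomal protein-coding genes (7.15%), which took 1709 members (52.8%). Of these genes 1265 had 1 member and 3 had 5.

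The longer a gene, the more often it held a member. The median record was 92717 bp for genes with a member and 17491 bp for all. Of the 12382 genes under 25000 bp, 1.87% had a member, of those from 25000 to 100000 bp 9.06%, to 250000 bp 21.5%, to 500000 bp 44.6%, and of the 216 longer ones 66.7% (60.1 to 72.6). Length gives a gene more room for any peak. The members' share of the HFD peaks in a gene ran from 3.31% in the shortest class to 4.82%, 4.95%, 6.76% and 7.49% in the longest. The average over all genes was 5.06%. A member needs a space free of ND and FAD peaks, so this share also depends on how dense peaks are. In 5 groups of 4133 genes from short to long, HFD peaks at or above the score minimum numbered 37.7, 45.3, 42.7, 38.6 and 28.4 per Mb. Members numbered 1.24, 1.41, 1.46, 1.91 and 1.61 per Mb. What lay behind the rise in share was not tested. The genes with most members were Spock1, which encodes a proteoglycan, Cdh13, which encodes T-cadherin, an adiponectin-binding surface protein, and the axon guidance receptor gene Robo1, with 5 each, then Tenm3 and Magi2 with 4 each. The 5 in Spock1 scored 100.59 to 152.62 and lay 6312 to 60255 bp from the nearest ND and 6812 to 51139 bp from the nearest FAD peak. Spock1 with its flanks held 41 HFD peaks in all, beside 22 of ND and 20 of FAD. In Cdh13 the 5 members scored 102.13 to 135.95 among 97 HFD, 70 ND and 52 FAD peaks. These genes thus carried peaks in all 3 libraries, and the members fell in the spaces between.

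Most genes with a member were of that kind. Of the 1477, 1194 (80.8%) also had at least 1 ND and 1 FAD peak in the record or its flanks, and 192 (13%) had none of either. Those 192 were short, with a median record of 12955 bp against 129026 bp for the 1194. The matching shares over all genes are not given here. Genes with a member have longer records than all genes (medians 92717 and 17491 bp), so these counts do not set them apart. Some listed genes were among the 192. Ucp2, a mitochondrial carrier gene, had 1 HFD peak (chr7:100497043-100497359, score 100.59), with ND and FAD peaks 13062 and 13091 bp away. Col5a2, a collagen gene, had 1 HFD peak (chr1:45462509-45462766, score 117.73) in a record of 128952 bp, with ND and FAD peaks 94445 and 94678 bp away. The germ cell gene Nanos3 had 1 of score 117.73, and Sdha, a subunit gene of succinate dehydrogenase, had 2, of which the member scored 100.59. Outside the lists the highest were Ldhb, which encodes a lactate dehydrogenase subunit (228.66), Pigh and the zinc finger gene Zfp2 (both 193.35); these 7 genes were picked out after their values were seen.

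Among genes of fat cell function, members were present at a few, 6 of the 8 adipogenesis genes among them being in the 20% of genes with the longest records. Of 45 adipogenesis and adipokine genes 8 had a member (17.8%, 9.29 to 31.3, median record 15675 bp), beside the 7.15% of all genes. They held 15 members, 10.7% of their 140 HFD peaks, where the average over all genes was 5.06%. The highest were Retn, already given, Ncoa2, which encodes a nuclear receptor coactivator (156.49), and Zfp423, a zinc finger gene of preadipocyte commitment (154.24). The member in Ncoa2, at chr1:13142909-13143295, lay 7210 bp from the nearest ND and 7203 bp from the nearest FAD peak. That in Zfp423, at chr8:87951152-87951455, lay 31014 and 22806 bp away. Of the 15, 5 were in Cdh13 and 3 in Ebf1, so 2 long genes held 8. Insulin signalling genes had 7 of 49 (14.3%, 7.1 to 26.7, median record 69048 bp), where all genes from 25000 to 100000 bp stood at 9.06%. They were led by Rptor, an mTORC1 subunit gene (153.27), the IGF receptor gene Igf1r (138.79) and Trip10 (126.18), and their members were 4.82% of their HFD peaks.

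Genes of lipid metabolism, heat production and cAMP signalling gave small counts. Lipid synthesis and breakdown genes had 3 of 55 (5.45%, 1.87 to 14.9). They were led by Cpt1a, which encodes the enzyme that commits fatty acids to mitochondria (172.18, chr19:3356205-3356592), and the lipid-sensing receptor gene Ppard (144.1). The nearest ND and FAD peaks to the Cpt1a member lay 12201 and 16804 bp away. Thermogenic genes had 5 of 35 (14.3%, 6.26 to 29.4), led by the coactivator gene Ppargc1b (159.66), the calcium channel gene Ryr2 (154.42) and the nuclear receptor gene Esrrg (151.61). Genes of cAMP signalling had 10 of 49 (20.4%, 11.5 to 33.6, median record 95279 bp), led by Adcy3, an adenylyl cyclase gene (135.89), and the phosphodiesterase genes Pde4d (130.01) and Pde7a (126.59). Members were 5.76% of the HFD peaks of the list, and all genes from 25000 to 100000 bp stood at 9.06%, those to 250000 bp at 21.5%. Clock genes had 5 of 25 (20%, 8.86 to 39.1, median record 33642 bp), led by Npas2 (176.85), Rorb (133.77) and the cryptochrome gene Cry2 (118.11). The clock interval includes the 9.06% of all genes from 25000 to 100000 bp. The intervals of the lipid, thermogenic and insulin lists include the 7.15% of all genes, and those of the adipogenesis, cAMP and clock lists lie above it. These lists differ from all genes in record length too, and none of the counts was tested.

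Few immune genes and few genes of the one-carbon pathway, which folic acid feeds, held a member, with intervals that include the 7.15% of all genes. Inflammation genes had 2 of 56 (3.57%, 0.985 to 12.1), Nlrp3 and the TNF receptor gene Tnfrsf1a (115.24), with a median record of 9729 bp. The Tnfrsf1a member, at chr6:125363104-125363699, had ND and FAD peaks 5076 and 5365 bp away, close to the limit of the rule. One-carbon metabolism genes had 1 of 53 (1.89%, 0.334 to 9.94, median record 22248 bp), Dmgdh, which encodes dimethylglycine dehydrogenase (135.63). All genes under 25000 bp stood at 1.87%. Its ND and FAD peaks lay 5307 and 18563 bp away. Genes of DNA methylation and demethylation had 1 of 32 (3.12%, 0.554 to 15.7), the methyl-CpG binding protein gene Zbtb38 (136.56), whose member spanned 1129 bp. None of the listed genes for DNA methyltransferases or TET enzymes held one. They are a part of these 32 genes, too few for that absence to set them apart from the 7.15% of all genes.

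Marker lists of the cell types that fat could hold gave counts near or under the 7.15% of all genes. Adipocyte markers had 2 of 28, Retn and the growth hormone receptor gene Ghr (101.32). Leukocyte markers had 2 of 43, the Fc receptor gene Fcgr1 (117.14) and Runx3 (105.81), and mesothelium and fibroblast markers had 1 of 26, the collagen gene Col1a2 (109.06). Endothelial markers had 0 of 26, which allows up to 12.9% (Wilson), and epididymis markers 0 of 39, which allows up to 8.97%. Peaks in these records say nothing of how many such cells were in the tissue.

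Genes of neuronal adhesion and synapses held members most often of the 20 lists, at 48 of 71 (67.6%, 56.1 to 77.3), and they are very long, with a median record of 928594 bp. Among genes over 500000 bp, 42 of 55 in the list had a member (76.4%, 63.7 to 85.6) and 102 of 161 outside it (63.4%, 55.7 to 70.4). From 250000 to 500000 bp it was 5 of 14 (35.7%, 16.3 to 61.2) against 207 of 461 (44.9%, 40.4 to 49.5). The intervals overlap in both classes, with the order reversed between them. Ctnnd2, Ptprd and Opcml had the highest-scoring members of the list. Members made up 8.09% of the HFD peaks in its longest genes and 7.24% of those in other genes of that class.

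**Figure D4:**
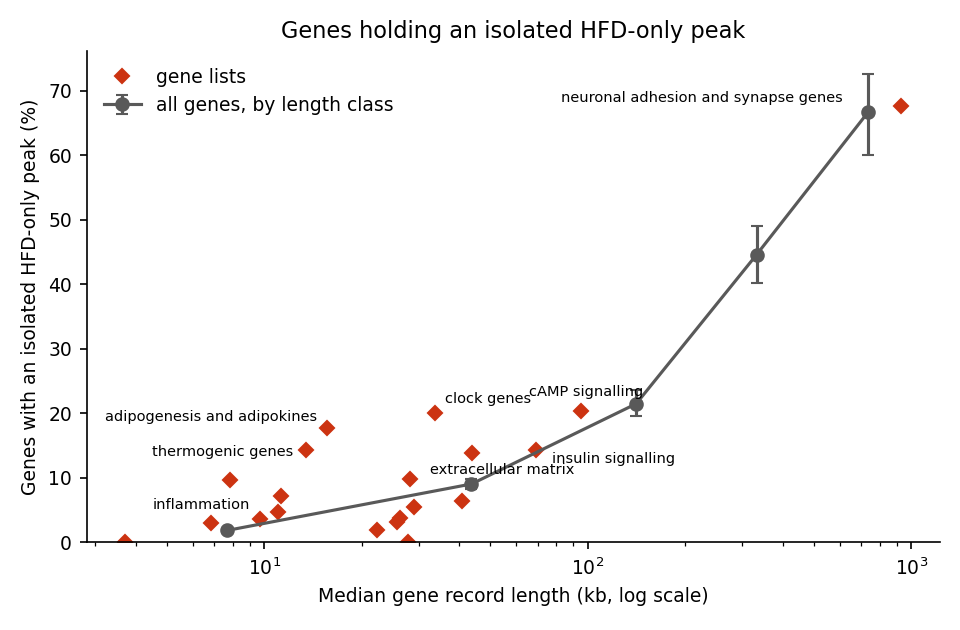
Percentage of genes with an isolated HFD-only peak in the record or within 2000 bp, against the median length of the gene record (kb, log scale). Diamonds are the 20 gene lists, and circles joined by a line are all autosomal protein-coding genes in 5 length classes with Wilson 95% intervals; the share climbs from 1.87% to 66.7% over the classes, and the neuronal list stands at 67.6% among the longest genes.

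The remaining lists spread around the share of all genes. Extracellular matrix genes had 8 of 58 (13.8%), led by the collagen genes Col12a1 (183.35) and Col5a1 (160.18) and then by 3 genes at 117.73, Col5a2 and the laminin genes Lama4 and Lamc1. Housekeeping genes had 5 of 52 (9.62%), led by Ywhae (154.24), Polr2a, which encodes the large subunit of RNA polymerase II (146.65), and the proteasome gene Psmd1 (142.2). The 5 members were 16.1% of only 31 HFD peaks in those genes. Germline genes had 5 of 51, led by Zbtb16 (147.55), and imprinted genes 3 of 47, the trafficking gene Trappc9 (145.66), Ddc (106.03) and Ppp1r9a (101.97). Developmental transcription factors had 3 of 97 (3.09%), Meis2 (120.58), Gata4 (107.99) and Pax3 (107.07). By gene family, 10 of 42 collagen genes (23.8%, median record 110432 bp), 26 of 362 Slc carrier genes (7.18%, 28700 bp) and 21 of 388 Zfp genes (5.41%, 17984 bp) had a member. So did 5 of 122 Vmn2r (4.1%, 24640 bp) and 4 of 1104 Olfr receptor genes (0.362%, 950 bp). None of 39 Hox, 53 Krt or 42 Defb genes did, which allows up to 8.97%, 6.76% and 8.38%. Their median records were 3737, 7070 and 3215 bp. All genes stood at 7.15%, the families differed widely in record length, and none of the counts was tested.

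The 5 members farthest from any peak of the other diets, 2 of them between genes, scored between 109.06 and 131.03. The farthest, at chr19:27161464-27161859, scored 128.44 and lay 154115 bp from the nearest ND and 152856 bp from the nearest FAD peak, 54620 bp from Vldlr, a lipoprotein receptor gene. The next in order lay in Nrg3, which encodes a ligand of ErbB receptors (109.06, 137812 bp from FAD), and in Inpp4b, a phosphoinositide phosphatase gene (117.73, 135408 bp from ND). One between genes on chromosome 17 (117.73, 127435 bp from ND) and one in the glutamate receptor gene Grik2 (131.03, 119132 bp from ND) followed. Of these 5, 3 carry 1 of the repeated scores and were at most 330 bp wide. The widest members were not the farthest. They lay in Plag1, a zinc finger transcription factor gene (chr4:3931825-3933520, 1696 bp, score 133.81), between genes near Lmo4 (chr3:144249348-144250975, 1628 bp, score 229.63), at Myocos (1447 bp, 133.15), between genes on chromosome 11 (1427 bp, 123.39) and in Arhgef4 (1403 bp, 116.89). The members in Plag1 and near Lmo4 had ND peaks at 11875 and 6307 bp and FAD peaks at 11929 and 6305 bp. In all, 99 members (3.06%) spanned 1000 bp or more.

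Most stretches with no ND or FAD peak that held a member held 1, often with other HFD peaks beside it. Members fell in 3061 such stretches, with a median length of 42456 bp. Of these, 2895 held 1 member, 157 held 2 and 9 held 3, and besides the members they held 5640 HFD peaks, while 288 (9.41%) held no HFD peak but the member. The longest stretch, chr14:38543610-38934171 at Nrg3, ran for 390562 bp and held 3 HFD peaks. A stretch of 188735 bp at chr13:101686501-101875235 overlaps Pik3r1, which encodes the regulatory subunit of the insulin-activated PI3 kinase. It held 7 HFD peaks, of which 3 were members with scores of 109.06, 135.63 and 112.15, all outside the gene record at 40233 to 93649 bp from it, and the peaks nearest to any of them were 12850 bp away in ND and 31376 bp in FAD. The stretch across Birc2 and Birc3, genes for inhibitors of apoptosis on chromosome 9, spanned 79813 bp and held 5 HFD peaks, with members of 100.59, 100.59 and 115.66, and that around Ppp2r2b and Stk32a spanned 233968 bp with 8.

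Members were spread over all 19 autosomes. Their share of HFD peaks ran from 3.94% on chromosome 17 to 5.71% on chromosome 19. The ND shares ran from 0.499% to 1.16% and those of FAD from 0.311% to 1.22%, so HFD was above both on 19 of 19 autosomes. The autosomes divide the same isolated peaks of 1 library per diet, so they are not 19 separate checks of the HFD excess.

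**Figure D5:**
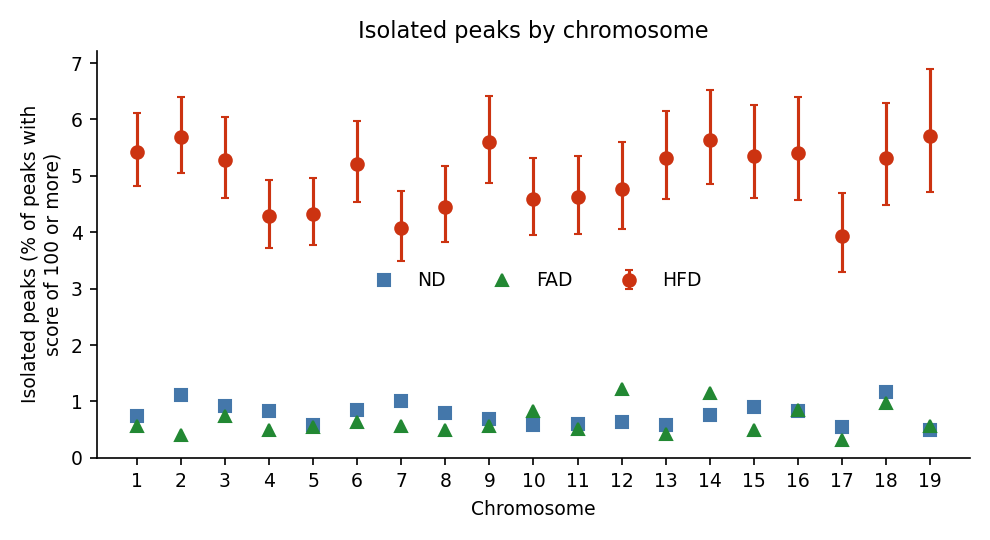
Isolated peaks as a percentage of the peaks with a score of 100 or more on each autosome, for the HFD library (circles with Wilson 95% intervals over peaks), the ND library (squares) and the FAD library (triangles). HFD lies between 3.94% and 5.71% on every chromosome and ND and FAD between 0.311% and 1.22%.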

How the data were processed

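MeDIP-seq peak lists of 3 libraries, 1 per diet, were analysed, with groups taken from the labels. Each deposited list holds positions and the authors' score for each peak, and the submitters' processing notes name build mm10. The score is at least 50, and its scale is not stated. It was used to rank and filter within a list and, for named members, set beside the scores of neighbours in other lists. Equal thresholds and such comparisons across lists assume a common scale. Peaks were called per library, with names carrying the MACS prefix per the file contents; aligner, caller settings, control, depth and duplicate handling are not given in the sources used. Distance is the number of bases between 2 peaks. Overlap needed 1 bp. Gene records (both ends, no strand) and promoter windows came from RefSeq tables of GRCm38.p6; the promoter table covers 18 autosomes. Of 929 listed symbols 924 matched a record. Members and lists were chosen with earlier results of these data known. The text names the 10 highest-scoring members, the 5 farthest and 5 widest, the 10 highest at gene ends, the 5 genes with most members, up to 3 genes per list, and the 6 highest at promoters, passing over provisional symbols, and some genes that this rule names are not reported here; other names were chosen after their values were seen. Where a score stands in parentheses it is that of the gene's highest-scoring member. Intervals are Wilson 95% intervals and cover counting error only. The member set matched bedtools window for 3236 of 3236 peaks. Alternatives changed the distance, score minimum, list length, presence rule, joining, narrow peaks, chromosomes and gene windows. Python 3.11.15, numpy 2.4.6, pandas 2.3.3, matplotlib 3.10.9 and bedtools 2.31.1 were used.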

Additional observations from a re-analysis of the deposited data

Results flagged for a closer look

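The members are autosomal by their rule. On chromosome X, which the comparisons do not use, 49 of 1757 HFD peaks with a score of 100 or more were isolated in the same way (2.79%), above 27 of 1742 in ND (1.55%) and 10 of 1564 in FAD (0.639%). On chromosome Y the order was different, with 8 of 908 in HFD (0.881%), 66 of 1297 in ND (5.09%) and 25 of 1029 in FAD (2.43%). With 1 library per diet no test was possible.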

How the results depend on the processing

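HFD had more isolated peaks than ND and FAD under all 10 planned changes of the rule and the added one, with a ratio of counts to ND of 3.95 to 16.9 (8.61 as reported). These are ratios of counts and not of shares, so they also carry the larger number of HFD peaks that reach the score minimum. Counts are given as HFD, ND and FAD, and values are named where they left the interval or moved by more than 1.5 times. Excluding overlap alone gave 5054 (7.75%), 751 and 515, a distance of 1000 bp gave 7.03%, 618 and 443, and 10000 bp gave 1907 (2.92%), 206 and 144. A score minimum of 75 gave 8515 (9.48%), 1445 and 1280, and one of 150 gave 406 (1.05%), 24 and 16. Equal-length lists gave 5.29%, 838 and 564. Counting only the top-scoring 50% of the other lists as present gave 14519 (22.3%), 3680 and 2307. Leaving out the narrowest 10% of peaks gave 5.58% of HFD and 446 FAD peaks. Leaving out the 10 commonest scores, added after seeing the data, gave 3.4%, 188 and 122.

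The median width was 421 bp at 10000 bp, 463 bp at a minimum of 75, 412.5 bp at 150, 542 bp without the narrowest peaks, and 545 bp both with the top-scoring 50% and without the commonest scores. The share in gene records was 60.3% without overlap, 56.6% at 10000 bp, 60.8% at a minimum of 150, 60.4% with the top-scoring 50%, and 50% for protein-coding records. The share at gene ends was 9.18% with 1000 bp on each side, 4.67% for protein-coding records and 12.8% with the top-scoring 50%. Of the listed genes 117 held a member, 208 with a minimum of 75 and 14 at gene ends only, and of all protein-coding genes 1477, 3186 and 161. Of the 20 lists, 8 stayed within 1.5 times their count at a minimum of 75, where all 20 were higher, 3 at gene ends only, where 17 were lower, and 17 with 5000 bp on each side. At a minimum of 75 the cAMP list went from 10 to 22, insulin signalling from 7 to 18, lipid genes from 3 to 11, and one-carbon metabolism and DNA methylation from 1 to 5 each. The cause of these moves was not tested, beyond what each setting adds or removes.

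No paired analysis was possible because each diet has 1 library, and leaving out a replicate was not possible for the same reason. Read depth is unknown, so how far it limits the calls of each list could not be measured. Counts above a score compare lists only as far as they share a scale.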
